A study of Mus musculus with 7 samples.

Results

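The cells described here are Mpo-positive, Elane-low progenitors of mouse bone marrow: 234 of 24430 cells kept from 7 single-cell RNA libraries, or 0.958%. A cell was a member when it held at least 5 unique molecular identifiers (UMIs, counted RNA molecules) of Mpo and at most 1 of Elane. It also had to hold 0 UMIs of Flt3, Dntt, Ms4a3 and Pf4, and fewer than 3 of 10 stem cell genes (Procr, Hlf, Mecom, Mllt3, Fgd5, Hoxb5, Slamf1, Ctnnal1, Pdzk1ip1 and Trpc6) could be detected. These 16 gate genes chose the cells, so their levels are given as descriptions without a test. The libraries hold LSK cells, which are marrow cells sorted as lacking lineage markers and carrying Sca-1 and cKit. The 3′ tag counts came from 3 libraries labelled B4galt1 knockout (genotype 129S1/C57Bl/6, B4-/-) and 4 labelled wild type, abbreviated WT (129S1/C57Bl/6). All 7 thus share the mixed 129S1/C57Bl/6 background, and the design text calls the knockout a full one. The labels give no age, sex or number of animals per library, so p-values measure the spread between libraries, which may be technical.

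Mpo encodes myeloperoxidase, the haem enzyme of the primary granules of neutrophils and monocytes. Its transcript is among the earliest of the granule genes to appear in marrow progenitors, before Elane (neutrophil elastase) and well before the secondary granule proteins made by maturing neutrophils. Flt3 marks multipotent and lymphoid-primed progenitors, Dntt lymphoid priming, Ms4a3 committed granulocyte-monocyte progenitors and Pf4 the megakaryocyte lineage. B4galt1 encodes a galactosyltransferase that adds galactose to the ends of glycans.

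Mpo and the serine protease genes Prtn3 (proteinase 3) and Ctsg (cathepsin G) are shown by the sequence before their RefSeq start sites (GRCm38.p6), because Mpo defines the cells and the other two are the granule protease genes that the comparisons below turn on. Each is printed 5′ to 3′ on the strand of the gene, and stops where a GENCODE exon begins. Capitals mark matches on either strand to GAGGAA, a PU.1 core, or to TGTGGT, a RUNX core; no 2 matches overlap.
Mpo: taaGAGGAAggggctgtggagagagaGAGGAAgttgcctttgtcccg
Prtn3: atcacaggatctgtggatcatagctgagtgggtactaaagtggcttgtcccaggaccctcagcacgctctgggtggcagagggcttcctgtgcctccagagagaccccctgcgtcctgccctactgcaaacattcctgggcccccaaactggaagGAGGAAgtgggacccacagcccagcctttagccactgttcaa
Ctsg: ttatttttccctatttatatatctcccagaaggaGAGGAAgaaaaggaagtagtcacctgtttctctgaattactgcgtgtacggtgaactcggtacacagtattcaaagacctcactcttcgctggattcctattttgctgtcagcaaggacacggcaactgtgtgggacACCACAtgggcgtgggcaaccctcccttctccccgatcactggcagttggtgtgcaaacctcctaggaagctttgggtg

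The printed stretches are chr11:87793534-87793580 for Mpo, chr10:79879417-79879613 for Prtn3 and chr14:56102575-56102824, minus strand, for Ctsg. In the 250 bases before the start, GAGGAA was found 2 times at Mpo and 1 time each at Prtn3 and Ctsg. The same letters stand in 23.3% of 32851 RefSeq windows of that length. TGTGGT was found 1 time, at Ctsg, and stands in 14.0% of windows. Neither TTGCNNAA, a C/EBP core (9.56% of windows), nor AGATAA (9.99% of windows), the core bound by GATA factors, was found before any of the 3 genes. These are matches of letters and say nothing of binding. In the GENCODE annotation of GRCm38, Mpo spans chr11:87793581-87804413, Prtn3 chr10:79874476-79883174 and Ctsg chr14:56099881-56102574. The Prtn3 stretch thus lies inside the longer GENCODE model of Prtn3, outside its exons, and the Mpo and Ctsg stretches end just before the first exon.

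The libraries held between 14970791 and 89747946 UMIs. Their cell barcodes fell into 2 lists by their opening bases: list A held knockout 1 and 2 and WT 1, 2 and 3, and list B held knockout 3 and WT 4. The list was therefore a term of the label comparison. Xist, the transcript of the inactive X chromosome, stood at 2631, 2998, 2373 and 2489 CPM, UMIs of a gene relative to all UMIs of its set of cells and library, in the members of knockout 1, knockout 2, WT 1 and WT 2 and at 0 in those of knockout 3, WT 3 and WT 4. Among the 5 libraries tested below, sex and barcode list coincide and cannot be told apart. At most 68 kept barcodes were shared by 2 libraries, knockout 3 and WT 4. The label of B4galt1 itself could not be checked, since the deleted stretch is not given and 3′ tags may lie outside it: B4galt1 in the members read 67.0, 77.4 and 28.6 CPM in knockout 1 to 3, and 33.9 and 29.4 CPM in WT 1 and WT 4.

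Members made up a larger mean share of knockout-labelled than of WT-labelled libraries, but the libraries overlapped. They numbered 24, 47 and 97 cells in knockout 1, 2 and 3, and 10, 5, 2 and 49 cells in WT 1, 2, 3 and 4. As a share of kept cells that was 0.781%, 2.72% and 1.42% against 0.804%, 0.427%, 0.133% and 0.553%. WT 1 stood just above knockout 1. The 95% exact Clopper-Pearson intervals, which cover counting error only, were 0.501% to 1.16%, 2.01% to 3.61% and 1.15% to 1.72% for knockout 1 to 3. For WT 1 to 4 they were 0.386% to 1.47%, 0.139% to 0.993%, 0.0162% to 0.481% and 0.409% to 0.730%. The means were 1.64% ± 0.991 (SD, n = 3) and 0.479% ± 0.279 (SD, n = 4). The difference of 1.16 percentage points had a two-sided exact permutation p of 0.114 over 35 splits, where the smallest possible p is 0.0571. Taking the two-sided p from absolute differences instead, a choice made after the first p was seen, gave 0.0571 (exact permutation, smallest possible 0.0286). Within list A the difference was 1.30 points (exact permutation p 0.4), and within list B, with 1 library per label, 0.862 points. Without knockout 2 the difference was 0.619 points.

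**Figure D1:**
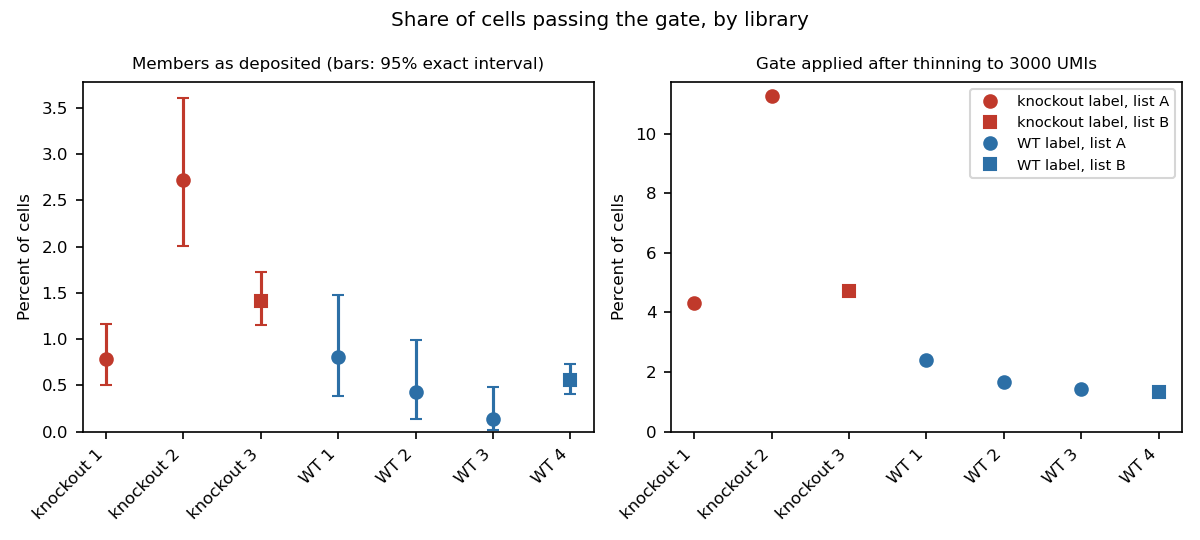
Percent of cells passing the gate in each library, as deposited (left, bars are 95% exact Clopper-Pearson intervals for counting error only) and after every cell was thinned to 3000 UMIs before the gate (right). Circles are list A and squares list B; knockout 1 (0.781%) and WT 1 (0.804%) overlap on the left, and no knockout library overlaps a WT library on the right.

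A gate that asks for 0 UMIs of several genes depends on depth. When every cell was first thinned to 3000 UMIs, 4.31%, 11.3% and 4.73% of knockout-labelled cells passed, against 2.39%, 1.68%, 1.44% and 1.35% of WT-labelled cells. These groups did not overlap, and the exact permutation p was 0.0571, the smallest this test can give; the p from absolute differences was 0.0286, likewise its smallest. Between 0% and 15.3% of the cells passing after thinning were members before it, so that share concerns largely other cells. Thinning left out 45 to 169 shallower cells per library.

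The steps of the gate show where members were lost. Mpo reached 5 UMIs in 8683 cells, 35.5% of those kept. The limit on Elane kept 79.3% of these, Ms4a3 86.2% of the remainder, Pf4 89.6% and Dntt 53.6%. The limit on stem cell genes kept 48.7%, and the absence of Flt3 kept 16.9%. Cells with 5 or more Mpo UMIs were 50.3%, 51.2% and 41.9% of the knockout-labelled libraries and 30.8%, 29.9%, 25.3% and 25.6% of the WT-labelled ones, a description of the gate gene. Members as a share of these Mpo-positive cells were 1.55%, 5.32% and 3.38% against 2.61%, 1.43%, 0.526% and 2.16%, with an exact permutation p of 0.171.

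A median member held 8675 UMIs (quartiles 6934 and 10812) from 3110 genes, and 9 UMIs of Mpo with a range of 5 to 82. Just inside the gate, 37 members held exactly 5 Mpo UMIs, beside 41 cells outside it with 4. Those 2 edges read 452 and 484 CPM of Prtn3, and 116 and 202 CPM of Ctsg. Elane stood at 1 UMI in 31 members and at 2 UMIs in 6 cells just outside. There were 133 members with 2 detected stem cell genes and 129 otherwise matching cells with 3, and 239 otherwise matching cells held 1 UMI of Flt3. Of the stem cell genes allowed by the gate, Mecom was seen in 134 members, Hlf in 94 and Mllt3 in 46, while Procr was seen in 10 and Slamf1 in 2. Mpo counts also stood in cells of a type that should lack it: of 65 cells in WT 4 with at least 3 T and NK cell markers (median 6114 UMIs), 5 held 5 or more Mpo UMIs, and of 5 such cells in knockout 1 (median 9068 UMIs, 238 Mpo UMIs in all), 1 did. In the other 5 libraries, 1 to 8 such cells held at most 3 Mpo UMIs in all. What gave these counts, and its part in the members, was not tested.

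Beyond the gate, the members carried Prtn3, Ctsg and progenitor genes, little RNA of secondary granule genes and some RNA of other lineages. Prtn3 was detected in 213 of 234 members and Ctsg in 143. Cd34, a sialomucin of early progenitors, read 263 to 491 CPM in the 5 libraries with at least 10 members, and Spi1, which encodes PU.1, read 124 to 212 CPM. Runx1, a transcription factor of blood stem and progenitor cells, read 471 to 1216 CPM. By contrast Cebpe, the factor that drives secondary granule genes, was seen in 9 members, S100a8 in 10, Csf1r (the macrophage colony-stimulating factor receptor) in 7 and Cebpa in 26. The 13 secondary granule neutrophil markers summed to between 4.24 and 62.8 CPM in those libraries, with Mmp8, Mmp9, Retnlg, Cd177 and Ly6g at 0. The 10 T and NK cell markers summed to at most 43.0 CPM, with Cd3e, Cd3g, Trac, Il2rb and Ncr1 at 0. The 12 dendritic and macrophage markers summed to at most 58.3 CPM, with Siglech, Cd209d, C1qa, C1qb, C1qc and Vcam1 at 0. The 12 monocyte markers summed to 294 to 909 CPM, the 13 megakaryocyte markers to 546 to 788 CPM and the 17 lymphoid markers to 130 to 343 CPM. The 14 erythroid markers summed to 163 to 1127 CPM, with Ermap at 0 and Car2 (carbonic anhydrase 2) in 184 members. The 9 basophil and mast cell markers summed to 80.1 to 1036 CPM, the highest sum being that of knockout 3. Mpo, Prtn3 and Ctsg were thus present beside low or absent secondary granule genes. Some RNA of stem cell, monocyte, megakaryocyte, lymphoid, erythroid, basophil and mast cell genes was present too.

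The members were not uniform. Gata2, a stem, megakaryocyte and mast cell factor, was detected in 106 members and Irf8, a monocyte and dendritic cell factor, in 65. Both were seen together in 22 cells, and neither in 85. Ctsg was seen in 52 of the 65 Irf8-positive members and in 62 of the 106 Gata2-positive ones, beside 143 of all 234. It was seen in 42 of 47 members of knockout 2 and in 49 of 97 of knockout 3. These 2 libraries gave 21 and 22 of the Irf8-positive members, and 13 and 54 of the Gata2-positive ones. Detection depends on depth and differs between libraries, so these counts are descriptions. The part of the library in them was not tested. One cell of knockout 3 stood apart: of its 7037 UMIs, 548 were Prss34 and 281 Mcpt8, which are basophil protease genes, beside 7 of Mpo. No other member held more than 1 UMI of Prss34 or 17 of Mcpt8. At lower counts such RNA was more widespread: Mcpt8 was detected in 35 of 234 members and Cpa3, a mast cell carboxypeptidase gene, in 51.

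**Figure D2:**
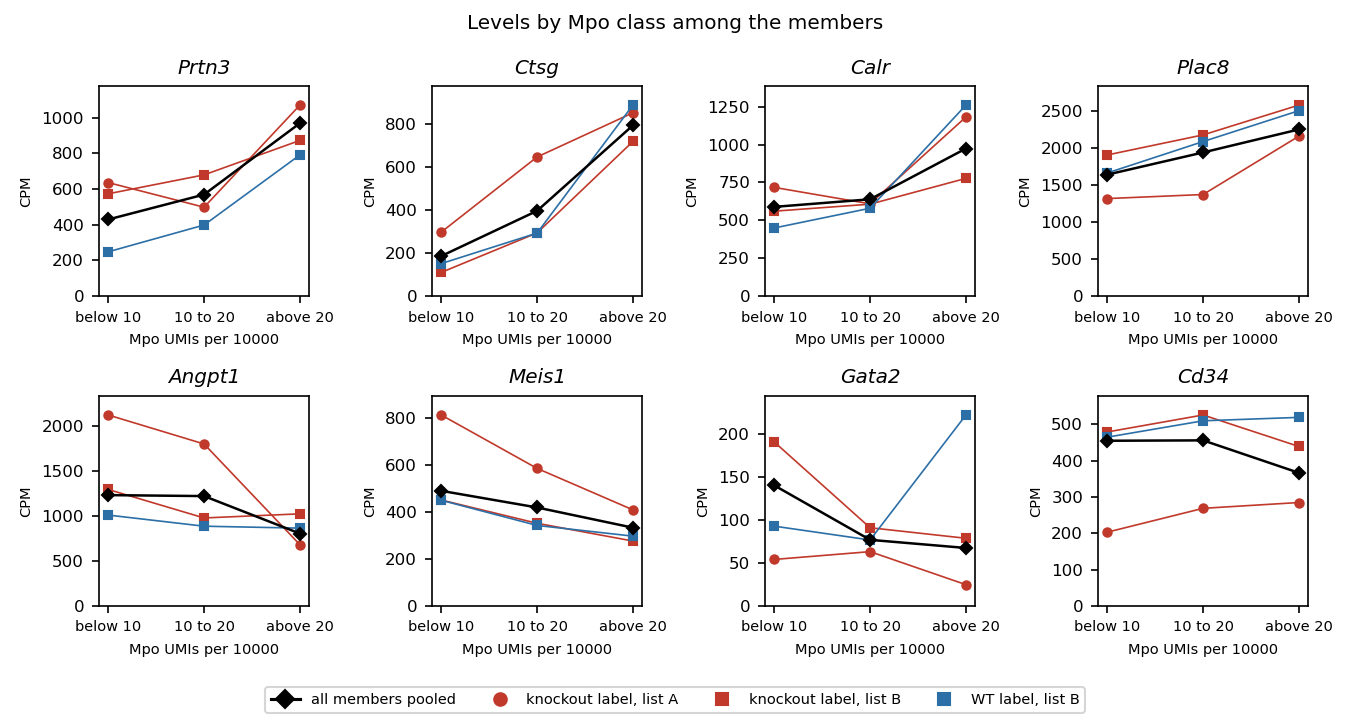
CPM of 8 genes in members grouped by Mpo UMIs per 10000 UMIs of the cell, for all members pooled (black) and for the 3 libraries with the most members, knockout 2, knockout 3 and WT 4. Ctsg was higher above 20 than below 10 in each library drawn; WT 4 has 4 cells in its top class.

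Members with more Mpo per UMI read higher in Prtn3, Ctsg, Plac8 and Rab44, but not in every granule gene. Mpo stood below 10 per 10000 UMIs in 94 members, at 10 to 20 in 96 and above 20 in 44. From the lowest to the highest class Prtn3 read 429, 569 and 969 CPM, and Ctsg 186, 397 and 796 CPM, pooled over libraries. Plac8 read 1636, 1935 and 2245 CPM, and Rab44 65.8, 103 and 135 CPM. Nkg7, a cytotoxic granule protein gene, went the other way in the pooled values, at 326, 242 and 212 CPM, but not alike in each library. It read 94.8, 111 and 92.9 CPM in knockout 2, 427, 289 and 310 CPM in knockout 3, and 376, 391 and 420.4 CPM in WT 4. Calr, which encodes the chaperone calreticulin that assists folding of myeloperoxidase, read 589, 639 and 974 CPM. Angpt1 (angiopoietin 1) read 1233, 1222 and 805 CPM, and Meis1, a homeobox partner of stem cell Hoxa genes, 490, 419 and 333 CPM. Gata2 read 140, 77.0 and 67.5 CPM pooled, but in WT 4 it read 93.0, 76.8 and 223 CPM. The top class held 39 knockout-labelled cells of 44, so the pooled values also differ in the libraries they draw on. No test was made, since Mpo chose the cells.

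The members were set beside 3 kinds of otherwise similarly gated cells, which served as counterparts: granule-high cells (Mpo at least 5, Elane at least 2 and any level of Ms4a3; 599 cells), Flt3-positive cells (the same gate as the members but with Flt3; 1153 cells) and Mpo-low cells (Mpo at most 1; 664 cells). Sums per library were compared in the 5 libraries with at least 10 members, with the library as a block. The gate splits the cells, and genes that go with a gate gene follow that split, so the differences below describe how the sets differ. Median UMIs per cell across the 5 libraries were 6588 to 10025 in members, 14182 to 28571 in granule-high, 10320 to 12964 in Flt3-positive and 3132 to 6830 in Mpo-low cells; the part of depth in the results was not tested, apart from the thinned comparison given with the Flt3-positive cells.

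**Figure D3:**
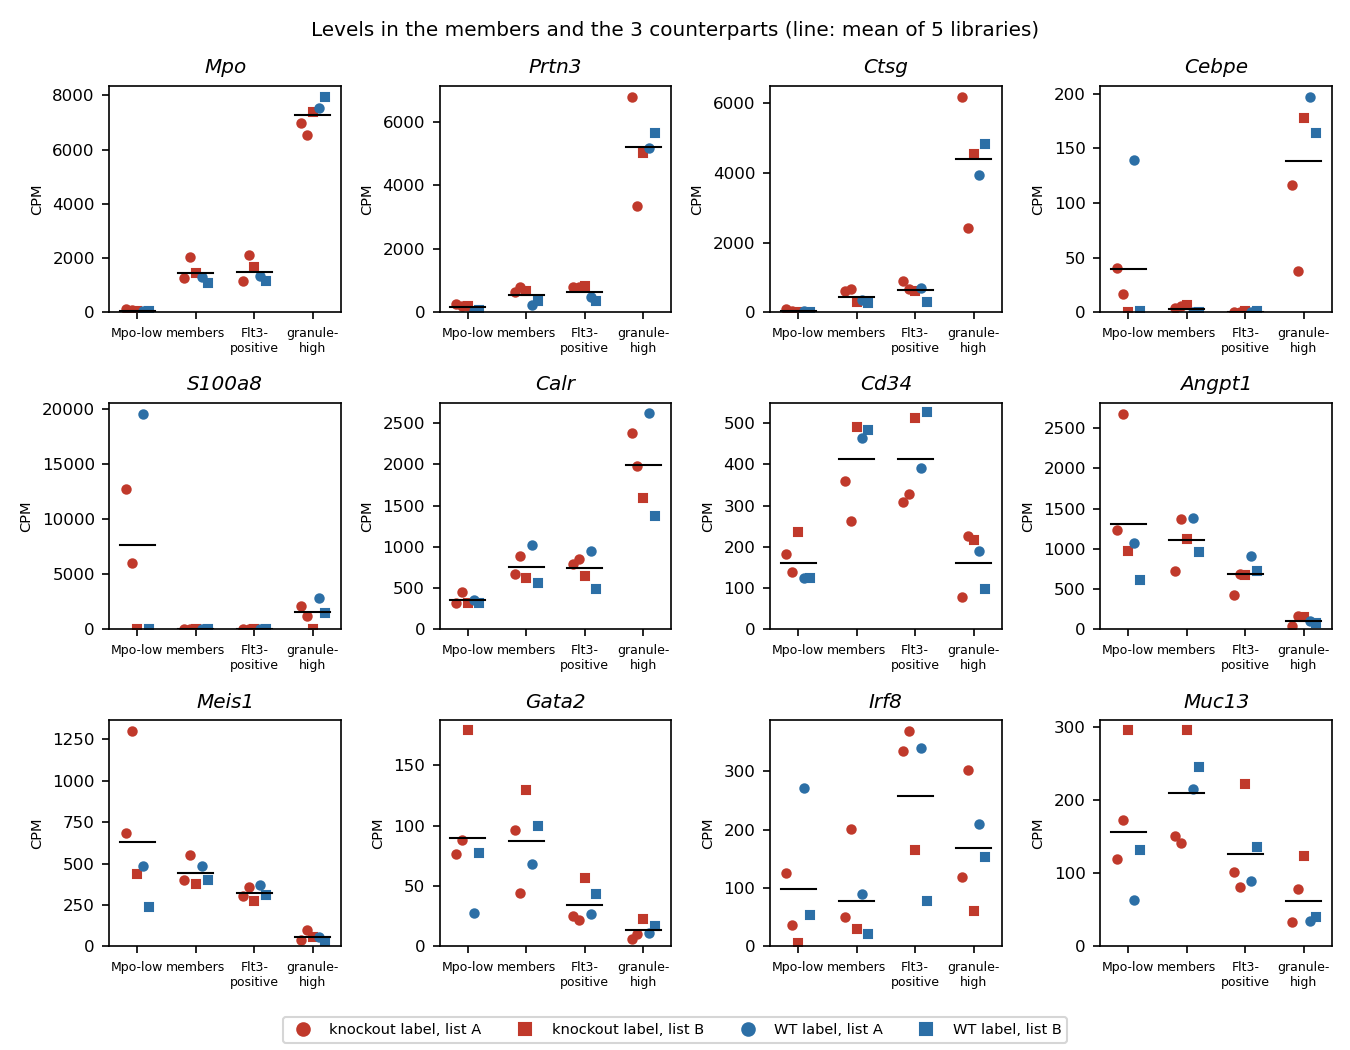
CPM of 12 genes in the members and the 3 counterparts, 1 point for each of 5 libraries and a line at their mean. Prtn3 and Ctsg in members lie far below granule-high cells, while Meis1, Angpt1 and Gata2 lie above them; among Mpo-low cells, S100a8 is high in the list A libraries (circles) and near 0 in list B.

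Against granule-high cells, members were lower in most tested primary granule, endoplasmic reticulum and G2/M phase genes and higher in the tested stem cell genes outside the gate. Of 7539 genes outside the gate, 34.5% were called (17.2% higher, 17.3% lower) at an edgeR quasi-likelihood Benjamini-Hochberg adjusted p under 0.05 (1297 higher in members, 1301 lower). Among 13 tested primary granule and granule-loading genes 11 were lower and 0 higher, with a median log2 difference of -1.73 beside -8.17e-06 over all genes. Prtn3 read 624, 782, 673, 237 and 346 CPM in members of knockout 1, 2, 3, WT 1 and WT 4, against 6784, 3356, 5028, 5170 and 5651 CPM. Every member value lay below every granule-high value (log2 difference -3.39 ± 0.43 SE, edgeR adjusted p 0.00526). For Ctsg, the members read 599, 669, 299.9, 350.3 and 265 CPM, against 6175, 2411, 4541, 3945 and 4833 CPM (-3.49 ± 0.48 SE, edgeR adjusted p 0.0067).

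Maturation genes were further apart. S100a8, a calcium-binding protein of mature neutrophils, read 20.9, 2.76, 1.06, 11.3 and 4.53 CPM in members and 2146, 1176, 58.1, 2887 and 1467 CPM in granule-high cells. The members were lower in 5 of 5 libraries (-7.69 ± 0.22 SE, edgeR adjusted p 1.02e-23), which the rule for naming these genes required. Knockout 3 was the lowest of the granule-high values. All 234 members together held 10 UMIs of S100a8, and this SE may understate the counting error. Wfdc21, Ly6c2, Trem3, Sgms2, Cebpe, Gda and Hp completed the 8 largest falls, each lower in 5 of 5 libraries by that same rule. Of 17 endoplasmic reticulum chaperone and folding genes 16 were lower (median -1.35), with Calr at 674, 887, 619.96, 1028 and 566 CPM in members and 2387, 1979, 1592, 2629.8 and 1380.2 CPM in granule-high cells. All 5 tested NADPH oxidase subunit genes were lower (median -0.99), and so were Alas1, which makes the first enzyme of haem synthesis (-3.63 ± 0.19 SE, edgeR adjusted p 6.14e-16), and 30 of 39 G2/M phase genes (median -0.90).

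In the other direction, all 7 tested stem cell genes outside the gate were higher in members (Meis1, Angpt1, Adgrl4, Txnip, Hoxa9, Ifitm3 and Ifitm1; median 2.15). Angpt1 read 721, 1368, 1116, 1379 and 958 CPM in members and 40.9, 163, 152, 98.5 and 74.97 CPM in granule-high cells, a log2 difference of 3.34 ± 0.15 SE (edgeR adjusted p 1.43e-15). Surface markers of progenitor subsets were split: of 12 tested, 7 were higher, Kit, Cd48 and Cd34 among them, and 3 lower (Fcgr3, Ly6c2 and Fcgr2b). Prkg1, Gimap6, Ctla2a, Csgalnact1, 2610307P16Rik, Gm19590 and Gcnt2 were the other largest rises, again in 5 of 5 libraries, as the naming rule required. Gcnt2 and Csgalnact1 encode glycosyltransferases. In the list of 33 glycosylation enzymes, 23 were tested, 6 were higher in members (Fut8, Gcnt2, St3gal1, St3gal3, Mgat4a and Galnt7) and 4 lower, among them B4galt6 (-2.67 ± 0.27 SE, edgeR adjusted p 2.21e-09). Muc13, a transmembrane mucin, was higher at 151, 141, 296, 215 and 244 CPM against 32.9, 77.7, 124, 34.3 and 40.5 CPM. Of 16 tested immediate early genes, 15 were higher in members (median 1.56). Such genes are known to respond to cell handling, but its part in this difference was not tested. Their summed level in members ran from 2860 to 5668 CPM, against 621 to 2307 CPM.

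**Figure D4:**
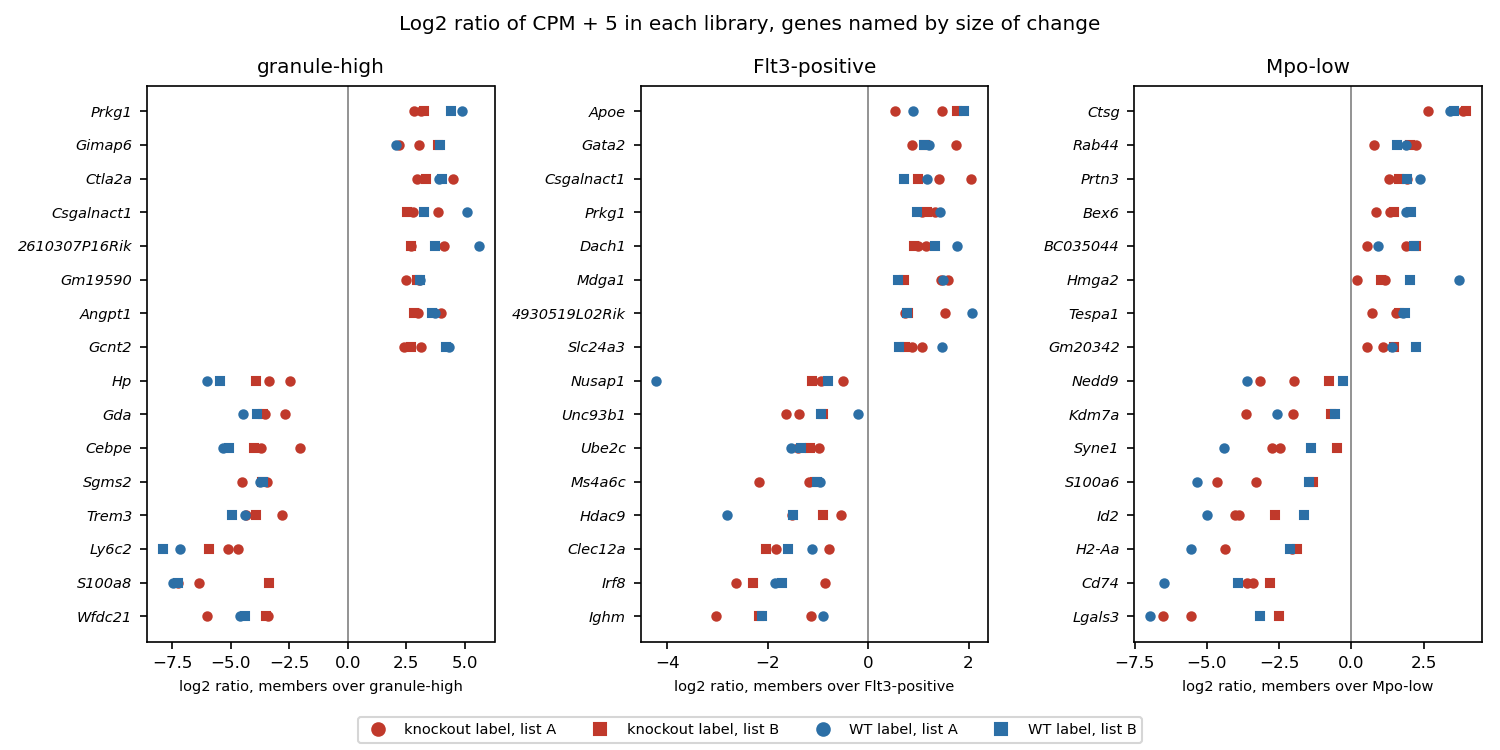
Log2 ratio of members over each counterpart for the 8 largest rises and 8 largest falls, computed from CPM plus 5 in each of 5 libraries; points right of the grey line are higher in members. All points of a gene lie on 1 side of the line, which the rule for naming these genes required, and the falls of Lgals3 and S100a6 against Mpo-low cells are larger in list A (circles) than in list B (squares).

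Against Flt3-positive cells, which share the Mpo gate, fewer genes differed, among them genes of the G2/M phase, monocyte and lymphoid lists. Among 8388 genes, 3.22% were called: 111 were higher in members (1.32%) and 159 lower (1.9%). Without knockout 3 there were 173 calls, and DESeq2 called 116. Apoe (apolipoprotein E) read 62.8, 122, 171, 79.1 and 95.1 CPM in members and 42.0, 40.4, 46.5, 40.2 and 21.5 CPM in Flt3-positive cells. No member value overlapped the counterpart (log2 difference 1.66 ± 0.14 SE, edgeR adjusted p 9.16e-17). Gata2 read 96.3, 44.2, 129, 67.8 and 99.6 CPM against 25.3, 21.7, 56.2, 26.4 and 43.1 CPM (1.26 ± 0.14 SE, edgeR adjusted p 1.53e-11). It was higher within each library, which the naming rule required, although the ranges overlap. Csgalnact1, Prkg1, Dach1, Mdga1, 4930519L02Rik and Slc24a3 were the other largest rises. Fut8, the core fucosyltransferase of N-glycans, was higher by 0.90 ± 0.07 SE (edgeR adjusted p 2.8e-21), and Fut8 and Gcnt2 were the 2 of 25 tested glycosylation genes called. Of 6 tested megakaryocyte markers 3 were higher, Itga2b and Cd9 among them, while DESeq2 called 1. Of 2 tested basophil and mast cell markers 1 was higher, Cpa3, a mast cell carboxypeptidase (2.05 ± 0.20 SE, edgeR adjusted p 5.37e-15). Pf4 was absent by the gate in both sets.

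Genes of the lymphoid and monocyte branches were lower. Ighm, the immunoglobulin mu chain, read 12.6, 71.8, 22.3, 79.1 and 29.4 CPM in members against 138, 165, 118, 151 and 144 CPM, without overlap (-2.01 ± 0.17 SE, edgeR adjusted p 8.44e-16). Satb1 and Notch1 were also called, so 3 of 4 tested lymphoid genes were lower. Of 9 tested monocyte markers 5 were lower (Ms4a6c, Ly86, Csf1r, Ccr2 and Ctss; median -1.38 beside -0.00467 over all genes). Irf8 read 50.3, 202, 29.7, 90.4 and 20.4 CPM against 335, 370, 165, 341 and 78.5 CPM (-1.77 ± 0.29 SE, edgeR adjusted p 0.0334); it was no longer called without WT 1, without WT 4, with Mpo of at least 10 UMIs, or without cells holding Prss34, Mcpt8 or Cpa3 (edgeR adjusted p up to 0.364). At that Mpo limit WT 1 kept 6 members, and without those cells 8, so these settings also left WT 1 out. Of 13 tested primary granule genes, 2 were higher in members (Cd63 and Nkg7) and 2 lower (Slpi and Prtn3). Prtn3 was lower by a small amount (-0.25 ± 0.07 SE, edgeR adjusted p 0.0303), and Ctsg was not called (-0.54 ± 0.18 SE, edgeR adjusted p 0.294).

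Mitotic genes were also lower in members: 25 of 40 G2/M phase genes were called, 0 in the other direction, with a median of -0.69 (DESeq2 called 14), while 3 of 31 S phase genes were lower. Ube2c, a ubiquitin-conjugating enzyme of mitotic exit, read 37.7, 77.4, 67.8, 33.9 and 54.3 CPM against 107, 156, 158, 108 and 146 CPM, without overlap. Members also held fewer UMIs per cell than Flt3-positive cells in each of the 5 libraries. With every cell thinned to 3000 UMIs after the gate, which was added once the values were known, 56 genes were called in 4 libraries, and Ube2c and Nusap1 were still among them. The rises of 4930519L02Rik and Slc24a3 and the fall of Unc93b1, which are among the 8 largest in each direction, were no longer called there (edgeR adjusted p 0.261, 0.131 and 0.117). Of the 17 endoplasmic reticulum genes, 10 haem synthesis enzymes and 20 ribosome biogenesis genes tested, edgeR called 0, with 1, 1 and 2 at an unadjusted p under 0.05, and DESeq2 called 0.

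The Mpo-low comparison is limited by what those cells hold. In the 3 list A libraries tested, the 13 secondary granule markers summed to 42386, 20094 and 82312 CPM in Mpo-low cells of knockout 1, knockout 2 and WT 1, against 11.04 and 9.72 CPM in knockout 3 and WT 4. The 12 monocyte markers summed to 5580.9, 2509.3 and 11035.4 CPM in Mpo-low cells of these list A libraries, against 240.7 and 311.8 CPM. The 14 erythroid markers went the other way, at 418.9, 526.3 and 369.7 CPM against 2648.8 and 6001.4 CPM. Of 4 tested erythroid markers 2 were lower in members (Blvrb and Car2). The parts of mature neutrophil, monocyte and erythroid RNA in this comparison were not tested. Among 6174 genes 1.47% were called: 40 were higher in members (0.648%) and 51 lower (0.826%). The number of calls was 37, 42 and 55 without knockout 1, 2 and 3, and 199 without WT 4. Ctsg was the largest rise, at 599, 669, 299.9, 350.3 and 265 CPM against 90.1, 40.8, 14.3, 27.9 and 18.0 CPM, without overlap (3.61 ± 0.25 SE, edgeR adjusted p 1.67e-07). Rab44, Prtn3, Bex6, BC035044, Hmga2, Tespa1 and Gm20342 followed. Of these, Hmga2 lost its call without knockout 1 or WT 1, with Mpo of at least 10 UMIs and with Elane at 0 (edgeR adjusted p up to 0.103), and Gm20342 without knockout 1 or knockout 3 (up to 0.0632). The Mpo and Elane limits also left WT 1 out, since it then kept 6 and 9 members. Of 12 tested primary granule genes 5 were higher (Ctsg, Prtn3, Rab44, Plac8 and Igfbp4) and 1, Hp, lower. Cd34 (1.26 ± 0.21 SE, edgeR adjusted p 0.00337) and Cd48 (1.11 ± 0.21 SE, edgeR adjusted p 0.012), a surface protein gained as stem cells become progenitors, were higher too. The largest falls were Lgals3, Cd74, H2-Aa, Id2, S100a6, Syne1, Kdm7a and Nedd9. Kdm7a was no longer called without knockout 1 or knockout 2 (edgeR adjusted p up to 0.0563), nor Nedd9 without knockout 2 (0.0815). Lgals3 (galectin 3) was at 2.12 CPM in knockout 3 and at 0 in the other 4 member sums, against 457, 231, 35.3, 621 and 40.3 CPM. Cd74 and H2-Aa belong to antigen presentation by major histocompatibility complex class II.

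By label, 1 gene of 6499 (0.0154%) was called in the members, and that call rested on 1 cell. Mcpt8 read 37.7, 63.6 and 318 CPM in knockout 1 to 3 and 11.3 and 29.4 CPM in WT 1 and WT 4 (log2 difference 3.33 ± 0.42 SE, edgeR adjusted p 6.77e-05). Without the basophil-gene-rich cell, knockout 3 read 20.3 CPM and the log2 difference was 0.18 (edgeR adjusted p 1.00). No gene was then called by edgeR, with 178 at an unadjusted p under 0.05; with that cell there were 173, and DESeq2 called 0, with 30. Mcpt8 was also no longer called without knockout 3 or without WT 4, and 4 to 10 genes were called when any 1 of the 5 libraries was left out. The 9 basophil and mast cell markers summed to 1036 CPM in knockout 3 with that cell, and to 80.1 to 181 CPM in the other 4 libraries.

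**Figure D5:**
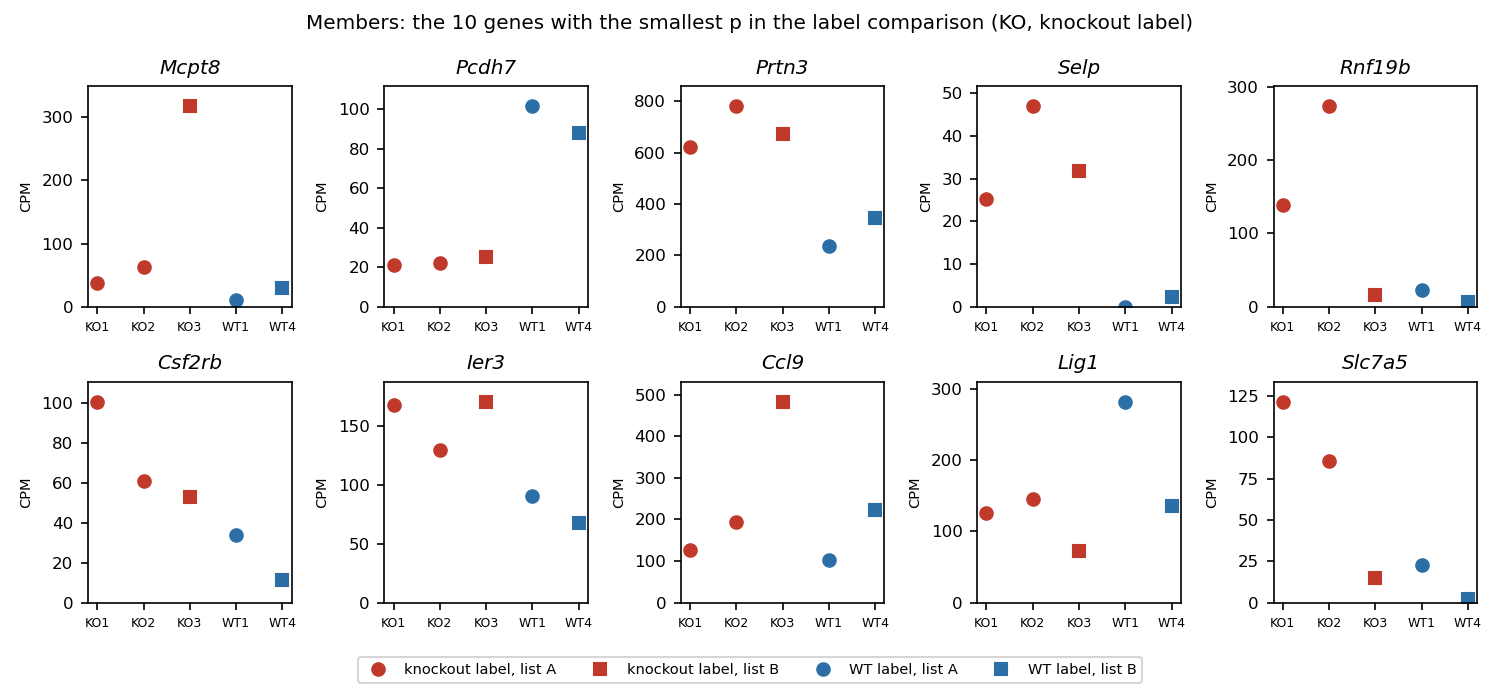
CPM in the members of 5 libraries for the 10 genes with the smallest p in the label comparison (KO, knockout label; circles list A, squares list B). Prtn3 lies between 624 and 782 in the 3 knockout libraries and at 237 and 346 in the 2 WT libraries, but only Mcpt8 passed the adjusted threshold.

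The next genes in order of p did not pass. Pcdh7, a protocadherin, read 20.9, 22.1 and 25.4 CPM under the knockout label and 102 and 88.3 CPM under the WT label, without overlap (-1.92 ± 0.40 SE, edgeR adjusted p 0.105). The members of knockout 1 held 238727 UMIs of all genes and those of WT 1 88486, so these CPM rest on few Pcdh7 UMIs there. Prtn3 did not overlap either, at 624, 782 and 673 CPM against 237 and 346 CPM (1.23 ± 0.26 SE, edgeR adjusted p 0.105). Over the alternatives its adjusted p ran from 0.000431 to 1, and that of Pcdh7 from 0.00423 to 1.00. In WT 2 and WT 3, with 5 and 2 members and not in the test, Prtn3 read 346 and 162 CPM and Pcdh7 92.2 and 485 CPM. Selp, Rnf19b, Csf2rb, Ier3, Ccl9, Lig1 and Slc7a5 had adjusted p of 0.443 to 0.999 (edgeR), and their label groups overlapped for Rnf19b, Ccl9, Lig1 and Slc7a5.

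No list of genes held a called member by label other than Mcpt8 among the basophil and mast cell markers. In simulated counts the label comparison called 10.1% of genes with a log2 difference of 1. Absent calls thus say little of differences of that size. The 12 tested primary granule genes had a median log2 difference of 0.17, the 16 endoplasmic reticulum genes 0.01 and the 19 glycosylation enzymes -0.10, beside 0.01 over all genes. The 29 S phase genes had a median of -0.34, with 4 of 29 above 0. Higher medians stood in the 5 monocyte markers (0.85, 5 of 5 above 0), the 6 haem synthesis enzymes (0.47, 6 of 6 above 0), the 10 cytokine receptors (0.40, 9 of 10 above 0) and the 18 immediate early genes (0.37, 13 of 18 above 0). B4galt1 differed by 0.37 and Muc13 by -0.02 (edgeR adjusted p 0.999 for both), and the sign of each changed under some alternatives.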

How the data were processed

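Per the file headers and the submitters' processing notes, the authors made UMI counts per gene and barcode with Cell Ranger 7.0.0 on mm10, and the notes also name Seurat 4.4.0; the deposited counts were used as raw. The annotation is not given in the sources used here. Barcodes with at least 1000 UMIs, at least 500 genes and at most 10% mitochondrial UMIs were kept; doublets stayed in, since Scrublet marked 0 to 5 barcodes per library, and an alternative removed the highest scores at 0.8% per 1000 barcodes. Counts were summed per library and set and tested with edgeR 4.0.16 (TMM, quasi-likelihood, Benjamini-Hochberg), with barcode list as a term for the label and library as a block between sets; DESeq2 1.42.0 was an alternative. The 5 libraries with at least 10 member cells entered; WT 2 and WT 3 did not. CPM values are plain counts scaled to the set's total. Each edgeR SE is the absolute log2 difference divided by the square root of the F statistic. It may understate counting error where a gene has few UMIs. Shares were compared by exact permutation (scipy 1.17.1), doubling the smaller tail.

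The planned counterpart with Elane of at least 2 UMIs had 14 cells, at most 7 per library, and could not be tested; the granule-high counterpart and the interaction with Flt3-positive cells replaced it after the data were seen. Named genes outside the gate were the 8 largest called rises and falls per counterpart with a mean of at least 50 CPM that moved alike in every library, and, by label, the 10 smallest p-values at a mean of at least 20 CPM, plus B4galt1 and Muc13; Gcnt2, Fut8, Irf8 and other list genes were named as list members, and genes named from a list at lower levels were chosen after their values were seen. Members, lists and tests were chosen with earlier results of these data known. The edgeR steps were tested on simulated counts with a common dispersion. Of genes simulated at a log2 difference of 1, 10.1% were called by label and 86.0% against Flt3-positive cells. At a log2 difference of 2 these were 86.0% and 99.5%. Some genes of the lists are not reported here.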

Additional observations from a re-analysis of the deposited data

Results flagged for a closer look

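Mcpt8 stood out as the gene whose label difference was not alike in 2 sets of cells. The label difference in members exceeded that in Flt3-positive cells by 2.04 on the log2 scale (± 0.43 SE, edgeR interaction, adjusted p 0.0383), the 1 gene called among 8388 (0.0119%). In Flt3-positive cells Mcpt8 read 33.9, 34.2 and 62.3 CPM in knockout 1 to 3 and 6.28 and 25.8 CPM in WT 1 and WT 4. Without the 1 member cell of knockout 3 that held 281 Mcpt8 UMIs, the difference was -1.57 (edgeR adjusted p 0.999), and no gene was called by edgeR. DESeq2 called 0 genes, with 27 at an unadjusted p under 0.05, against 280 for edgeR.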

How the results depend on the processing

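Of the 8 largest rises and 8 largest falls against granule-high cells none lost its call under the alternatives run. They had been chosen for large changes alike in every library, which favours keeping a call. The other genes named there were not followed. The label comparison was the least stable: against 1 called gene, 7 were called without a gene filter, 4 to 10 when a library was left out, 5 with Elane at 0 UMIs, 3 in list A alone and 3 with all 7 libraries. It gave 0 with DESeq2, with Mpo of at least 10 UMIs, without the barcode list as a term, with 10 members per library, and without the basophil-gene-rich cell. Mpo-low calls numbered 525 without a filter, 55 with Elane at 0, 60 with at least 2000 UMIs per cell, 137 with all 7 libraries, and 37 to 199 when a library was left out (lowest without knockout 1, highest without WT 4), against 91. Flt3-positive calls numbered 116 by DESeq2, 94 with Mpo of at least 10, 162 without cells holding Prss34, Mcpt8 or Cpa3, 56 after thinning, and 173 to 265 when a library was left out (lowest without knockout 3), against 270. Granule-high calls numbered 1495 with Mpo of at least 10, against 2598, and 2021 to 2631 when a library was left out. The interaction gave 5 calls without a filter, 2 with all 7 libraries, 0 to 2 when a library was left out, and 0 by DESeq2, with Mpo of at least 10, after doublet removal and without the basophil-gene-rich cell. With Mpo of at least 10, Elane at 0, thinning, or no cells holding Prss34, Mcpt8 or Cpa3, WT 1 also left the fit. It then kept 6, 9, 9 and 8 members, so these counts do not part the setting from the loss of WT 1. The causes were not tested.

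The call of the same genes was kept without each library in turn for 24 of 91, 109 of 270 and 1420 of 2598 genes (Mpo-low, Flt3-positive, granule-high). The share difference ran from 0.619 to 1.59 points when a library was left out. Its doubled-tail p could not fall under 0.05 in any setting, so that p says nothing of stability. The exact permutation p from absolute differences was 0.0571 as reported and 0.2 in list A. With a library left out it was 0.0667 to 0.2, where the smallest possible is 0.0667 or 0.1. After thinning it was 0.0286, for cells that were largely not members. Signs turned by label for B4galt1 (-0.0269 without WT 1, -0.19 with Mpo of at least 10, -0.30 with Elane at 0), for Mcpt8 (-1.02 with Mpo of at least 10) and for Muc13 (0.0377 without a filter, 0.01 without knockout 1, 0.09 without knockout 2, 0.29 without WT 1, 0.26 with Elane at 0, 0.16 with 10 members per library). The Mpo and Elane limits also left WT 1 out, so WT 4 was then the only WT library. When a library was left out, B4galt1 ran from -0.0269 to 1.16, Muc13 from -0.53 to 0.29 and Mcpt8 in the interaction from -0.19 to 2.15. In the interaction Mcpt8 turned to -0.19 without knockout 3, -0.18 without WT 4, -2.09 with Mpo of at least 10 and -1.57 without that cell. Knockout and WT libraries of the same replicate number correlated at 0.55, 0.74 and -0.36 for numbers 1, 2 and 3. These values cannot tell whether replicate numbers pair the libraries, because the barcode list was not removed first. Numbers 1 and 2 fall within list A, while number 3 joins knockout 3 of list B to WT 3 of list A. A replicate block on all 7 libraries gave 15 calls, and on 5 libraries could not be fitted. Alternatives planned for the Elane-positive counterpart were not run.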
